A study of Homo sapiens with 6 samples.

Results

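Solute carriers are membrane transport proteins, most of which have gene symbols that begin with SLC, and the genes with such symbols were studied here in Rh30 cells, an established human line of alveolar rhabdomyosarcoma, a cancer resembling skeletal muscle precursors, with the PAX3-FOXO1 fusion gene. Probes were members when their platform symbol started with SLC and a digit and when their detection score exceeded 0.95 on at least 3 of the 6 arrays. The score lies between 0 and 1, rises with the signal and was read as 1 minus the detection p. Of 564 such probes for 383 symbols, 262 probes for 202 symbols passed, out of 21232 tested probes and 11806 tested genes in all. Among the other symbols, 139 had no probe detected on any array and 42 had a best probe detected on 1 or 2 arrays. The threshold fell among dim probes: 13 members were detected on exactly 3 arrays, with mean signals between 87.3 and 98.2, and 10 probes just outside, detected on 2 arrays, had mean signals between 81.0 and 95.4.

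The series held 3 arrays of cells transfected with a scrambled control siRNA and 3 of cells transfected with an siRNA against P/CAF, the lysine acetyltransferase encoded by KAT2B, all Rh30 and all taken after 72 h. RNA was amplified to biotinylated cRNA and read on Illumina HT-12 bead arrays. Nothing in the labels says whether each array had its own culture, so the p-values reflect the spread among these samples alone, and that may be technical. The stated interest of the study lay in growth, cell death and muscle genes, and transporters were not among its themes.

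Solute carriers move small molecules across membranes without hydrolysing ATP themselves. Uniporters let a substrate run down its gradient, whereas symporters and antiporters couple it to sodium, protons or another solute. Families are defined by sequence and mostly share a class of substrate, such as amino acids in SLC7 and SLC38, glucose in SLC2, zinc in SLC30 and SLC39, and metabolites crossing the inner mitochondrial membrane in SLC25. Skeletal muscle relies on carriers for glucose, creatine, amino acids and ADP/ATP exchange, and tumour cells often draw on amino acid and glucose carriers for growth.

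Between 20891 and 21421 of 47323 probes were detected per array, with correlations of 0.981 to 0.994 within groups. KAT2B itself fell by 2.77 on the log2 scale after siP/CAF, from 9.49 ± 0.36 to 6.72 ± 0.29 (SD, n = 3; limma with Benjamini-Hochberg adjustment, adjusted p = 1.91e-04). All 7 myogenic markers examined, MYOD1, MYOG, DES, FGFR4, CDH15, MYF5 and CHRND, were detected on all 6 arrays, while the 4 epithelial markers were detected on none; PTPRC, CD3E, VWF, PLIN1, SNAP25 and RBFOX3 were also detected on none, whereas CD14, PECAM1 and SYT1 were detected on all 6. Of these markers the muscle regulator MYOG fell by 1.67 and the endothelial PECAM1 by 0.59 (limma with Benjamini-Hochberg, adjusted p = 6.88e-04 and 0.0433), and their part in the carriers' values was not tested. In such bulk samples, fewer cells of a kind and less RNA per cell cannot be told apart. Control array 3 stood somewhat apart for the carriers: its values lay at a median of 0.12 above the control mean over the 202 genes, against 0.07 over all tested genes.

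Among the solute carriers, 7 genes changed after siP/CAF. The brightest tested probe stood for each gene, and 7 of 202 genes passed (3.47%; limma with Benjamini-Hochberg, adjusted p below 0.05 over all tested probes), against 5.37% of all 11806 tested genes. The sodium-sulfate cotransporter SLC13A4, the phosphate transporter SLC20A2, the amino acid transporter subunit SLC3A1 and the orphan SLC35G2 rose. SLC3A1 was detected on no control array and so met the detection rule only through the group in which it was high. The mitochondrial carrier SLC25A34, the vesicular monoamine transporter SLC18A1 and the monoamine transporter SLC29A4 fell. An arginine transporter, SLC7A3, did not pass on its brightest probe; a dim probe of it passed as lower, but was detected on no siP/CAF array and was tested only because the controls detected it. The 4 rises made up 1.98% of the carriers, against 2.28% of all genes, and the 3 falls 1.49%, against 3.09%.

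Seen across all 202 genes, the differences of the carriers spread about as widely as those of all genes. Their log2 differences, siP/CAF minus control, had a median of 0.01 and a middle range from -0.21 to 0.18, and over all tested genes the median was -0.01 and the range from -0.21 to 0.18. The median sign is not firm, since the carriers' median was -0.04 when arrays were scaled to a common median. The extremes were -1.65 for SLC25A34 and 1.63 for SLC13A4, the 2 genes beyond 2-fold (0.990% of carriers, against 1.97% of all genes). The groups did not overlap for 58 carriers (28.7%), 24 higher and 34 lower after siP/CAF, against 27.7% of all genes. Without adjustment, 44 carriers had a p under 0.05 in limma (21.8%, against 20.6% of all genes), 16 higher and 28 lower. The count of 7 moved when single arrays were left out, and so did the share of all genes. It was 2 (0.990% of carriers) without array 1 or 2 of the controls or array 1 or 3 of siP/CAF. The shares of all genes were then 2.03%, 3.02%, 1.77% and 2.84%, in that order. Without siP/CAF array 2 the count was 5 (2.48%, against 2.26% of all genes). Without control array 3 the count was 6 (2.97%, against 5.95% of all genes). The split of 4 rises and 3 falls was 3 and 9 when arrays were scaled to a common median, and 5 and 8 without background correction.

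**Figure D1:**
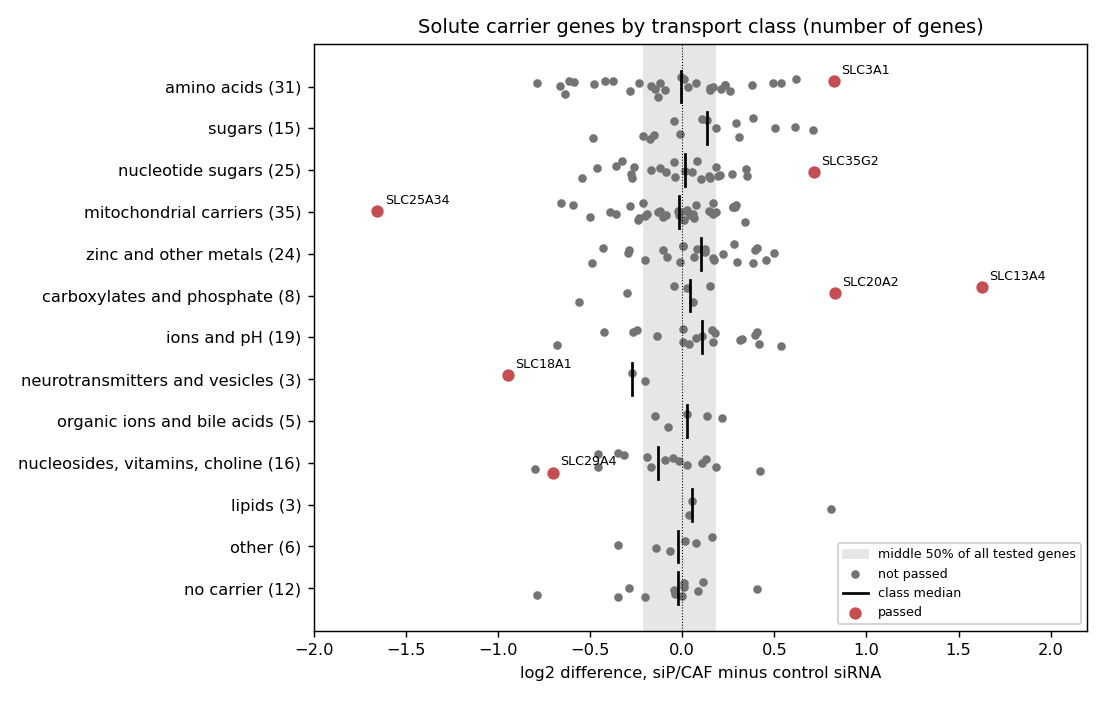
Log2 difference (siP/CAF minus control siRNA, 3 arrays each) of the 202 solute carrier symbols, 1 point per gene, in rows by transport class with the number of genes in brackets; red points passed limma at an adjusted p under 0.05, black bars are class medians and the grey band holds the middle 50% of all tested genes. The 7 red points lie in 6 of the 13 classes, with SLC25A34 at -1.65 and SLC13A4 at 1.63 farthest from 0.

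The carriers with the largest fall and the largest rise are shown by the 250 bases before their annotated start, because they are the 2 carriers beyond 2-fold. The windows come from RefSeq on build GRCh38.p14, and capitals mark CAGCTG, an E-box of the kind bound by myogenic bHLH factors, and TGANTCA, the AP-1 core. Both motifs read the same on either strand, and they do not overlap in these windows. SLC25A34 lies on the plus strand, and the bases shown are chr1:15736008-15736257. SLC13A4 lies on the minus strand, and the bases shown are chr7:135728187-135728436.
SLC25A34: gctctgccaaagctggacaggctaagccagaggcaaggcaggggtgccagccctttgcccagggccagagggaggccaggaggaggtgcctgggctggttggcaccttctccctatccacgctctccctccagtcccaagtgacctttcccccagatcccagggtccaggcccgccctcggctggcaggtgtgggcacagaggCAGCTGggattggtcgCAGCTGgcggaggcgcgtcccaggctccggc
SLC13A4: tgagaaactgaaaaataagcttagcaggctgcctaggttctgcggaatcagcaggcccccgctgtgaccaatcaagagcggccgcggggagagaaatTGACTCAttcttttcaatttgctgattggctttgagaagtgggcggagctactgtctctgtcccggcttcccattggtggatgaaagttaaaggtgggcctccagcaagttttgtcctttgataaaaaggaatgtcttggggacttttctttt
In the window shown, SLC25A34 held CAGCTG at 47 and 31 bases before the start. Counting also the 50 bases after the start, its promoter held CAGCTG 3 times and TGANTCA 0 times, and SLC13A4 held TGANTCA once, 153 bases before the start, and CAGCTG 0 times. CAGCTG stood at least once in 17.7% of the 27305 promoters of the table and in 21.8% of the 170 tested carriers with a promoter there, and 3 or more times in 0.209% of all promoters. Among the 9474 tested genes with a promoter there, the share with CAGCTG was 17.2%. TGANTCA stood in 7.76% of all promoters, 4.38% of those of tested genes and 4.12% of the carriers'. GC content was 68.4% in the SLC25A34 stretch and 48.4% in that of SLC13A4. The promoters of SLC29A4 and SLC35G2, the other matched carriers among those that passed, held neither motif. These are matches of letters, and binding was not measured.

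Of 8 measured carriers of carboxylates, sulfate and phosphate, 2 rose (25%, against 2.28% of all genes), a class too small to read a share from. SLC13A4, which brings sulfate into cells together with sodium, measured 6.05, 5.84 and 5.81 on the log2 scale with control siRNA and 7.52, 7.49 and 7.57 after siP/CAF. All siP/CAF arrays lay well above all controls, and the 3 treated values were close together. The rise was 1.63, or 3.09-fold (SE 0.15; limma with Benjamini-Hochberg, adjusted p = 5.05e-04). Before normalization the signals were 133, 103 and 117 with control siRNA and 239, 236 and 232 after siP/CAF, so the probe was dim but detected on all 6 arrays. Its size depended on the background correction, being 1.05 without it, and it passed under all 18 alternatives tried.

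SLC20A2, a sodium-phosphate symporter of nearly all tissues, measured 8.68, 8.96 and 9.26 with control siRNA and 9.78, 9.79 and 9.81 after siP/CAF. The groups did not overlap, and the controls spread far more than the treated arrays. It rose by 0.83 (SE 0.17; limma with Benjamini-Hochberg, adjusted p = 0.0279). Its paralog SLC20A1 measured -0.30 with overlapping groups and did not pass (limma with Benjamini-Hochberg, adjusted p = 0.490). The difference between the paralogs was not tested. SLC20A2 kept its call without control array 3 and lost it without each other array (limma with Benjamini-Hochberg, adjusted p up to 0.107). SLC16A10, a transporter of aromatic amino acids in the monocarboxylate family, measured -0.56 with groups that did not overlap and did not pass (limma with Benjamini-Hochberg, adjusted p = 0.0714). The other monocarboxylate family members measured, SLC16A12, SLC16A4 and SLC16A9, lay between -0.04 and 0.06.

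Mitochondrial carriers were the largest class, with 35 measured genes, of which 1 fell (2.86%, against 3.09% of all genes) and none rose. SLC25A34, an SLC25 member without a firmly established substrate, measured 6.95, 6.81 and 7.24 with control siRNA and 5.33, 5.70 and 5.00 after siP/CAF. Every siP/CAF array lay below every control by more than 1 on the log2 scale, and the probe was detected on 3 control and 2 siP/CAF arrays. It fell by 1.65 (SE 0.20; limma with Benjamini-Hochberg, adjusted p = 0.00249). The fall was 0.93 without background correction. Before normalization the signals were 200, 147 and 224 with control siRNA and 98.5, 108 and 88.2 after siP/CAF. It passed whichever single array was left out, with log2 differences between -1.83 and -1.48.

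The other mitochondrial carriers lay between -0.66 and 0.34 and none passed. SLC25A27, an uncoupling protein relative of nervous tissue, measured -0.66 and the coenzyme A carrier SLC25A42 -0.59, and neither passed (limma with Benjamini-Hochberg, adjusted p = 0.107 and 0.167). The ADP/ATP translocases, which exchange ATP made in the matrix for cytosolic ADP, measured 0.27 for SLC25A4, the isoform of muscle and heart, and -0.11 for SLC25A5. The phosphate carrier SLC25A3 measured 0.04, the citrate carrier SLC25A1 -0.02 and the carnitine-acylcarnitine carrier SLC25A20 0.34. The class median was -0.02. An unadjusted p under 0.05 in limma was found for 5 members (14.3%, against 20.6% of all genes), all lower. The groups did not overlap for 4 (11.4%, against 27.7% of all genes).

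Of 3 measured carriers of neurotransmitters and vesicles, 1 fell (33.3%, against 3.09% of all genes), a class too small to read a share from. SLC18A1, the vesicular transporter VMAT1 that loads monoamines into secretory vesicles of neuroendocrine cells, measured 7.97, 8.38 and 8.01 with control siRNA and 6.85, 7.43 and 7.23 after siP/CAF. All treated arrays lay below all controls. It fell by 0.95 (SE 0.19; limma with Benjamini-Hochberg, adjusted p = 0.0252), and a second probe fell by 0.73 (limma with Benjamini-Hochberg, adjusted p = 0.0266). The call of the brighter probe held without control array 3 or siP/CAF array 2 and was lost without each other array (limma with Benjamini-Hochberg, adjusted p up to 0.111).

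SLC29A4, the plasma membrane monoamine transporter PMAT of the equilibrative nucleoside transporter family, measured 9.22, 9.53 and 9.68 with control siRNA and 8.83, 8.87 and 8.62 after siP/CAF. The groups were separate, and no treated array reached the lowest control. The fall was 0.70 (SE 0.17; limma with Benjamini-Hochberg, adjusted p = 0.0466), and leaving out any 1 array ended the call (limma with Benjamini-Hochberg, adjusted p from 0.0623 to 0.140). A dim second probe, detected on all control and no siP/CAF arrays, passed as well (limma with Benjamini-Hochberg, adjusted p = 0.0414) and was at least 1.42-fold lower after siP/CAF; that bound sets the control mean against the lowest detected signal of each treated array or the probe's own value, whichever is higher. This second probe met the detection rule only through the control arrays. The nucleoside transporters of the same family, SLC29A1, SLC29A2 and SLC29A3, measured -0.02, 0.11 and -0.19 and did not pass. Of the other carriers grouped with neurotransmitters, the polyamine transporter SLC18B1 measured -0.27 and the orphan SLC6A16 -0.20.

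**Figure D2:**
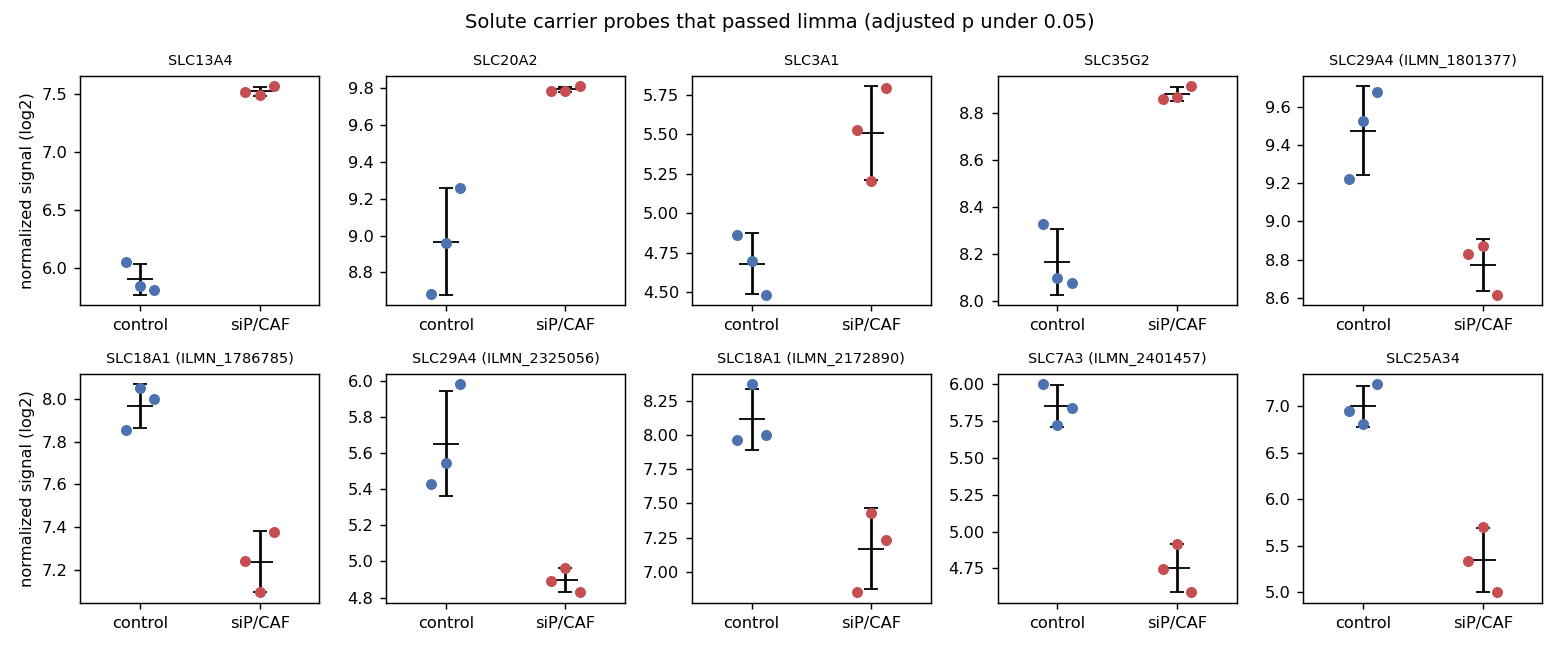
Normalized signal on the log2 scale of the 10 solute carrier probes that passed limma, 1 panel per probe with its own vertical range, with blue points for the 3 control siRNA arrays, red points for the 3 siP/CAF arrays and black bars for the mean ± SD. In every panel the 2 groups are separate, and for SLC13A4, SLC20A2 and SLC35G2 the treated points lie close together.

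Among 31 amino acid carriers 1 rose (3.23%, against 2.28% of all genes) and none fell on the brightest probes. SLC3A1 encodes rBAT, the heavy subunit that brings the cystine and dibasic amino acid exchanger to the membrane of kidney and gut cells. It measured 4.87, 4.70 and 4.48 with control siRNA and 5.53, 5.20 and 5.79 after siP/CAF, with no overlap. No control array and all siP/CAF arrays detected its probe, so it met the detection rule through the group in which it was high. By the detection bound it was at least 1.26-fold higher. Its fitted log2 difference was 0.83 (limma with Benjamini-Hochberg, adjusted p = 0.0388), and 0.45 without background correction. Its call was lost without each array except siP/CAF array 2 and in 12 of the 17 alternatives that could test it.

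SLC7A3, the cationic amino acid transporter CAT3 that carries arginine and lysine, gave different calls on its probes. The brightest probe measured 8.31, 8.47 and 8.32 with control siRNA and 8.11, 7.81 and 7.73 after siP/CAF, a difference of -0.48 that did not pass although the groups were separate (limma with Benjamini-Hochberg, adjusted p = 0.128). The dim probe measured 6.00, 5.72 and 5.84 with control siRNA and 4.75, 4.92 and 4.59 after siP/CAF. Detected on all control and no siP/CAF arrays, and thus a member only through the controls, it was at least 1.63-fold lower by the detection bound. Its fitted log2 difference was -1.10 (limma with Benjamini-Hochberg, adjusted p = 0.00557). Because the rule admitted the dim probe only through the controls, its lower value says nothing of agreement with the brightest probe.

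The neutral amino acid carriers of SLC38, many of which take up glutamine with sodium, came closest to the threshold on both sides. SLC38A10 measured -0.66 and SLC38A4, known from liver, 0.62, each with separate groups (limma with Benjamini-Hochberg, adjusted p = 0.0559 and 0.0586). SLC38A10 measured 9.73, 9.84 and 10.21 with control siRNA and 9.18, 9.28 and 9.33 after siP/CAF, and its dimmer probe measured -1.05 and did not pass (limma with Benjamini-Hochberg, adjusted p = 0.0713). SLC38A4 measured 7.61, 7.32 and 7.49 against 8.02, 7.98 and 8.27. SLC38A10 passed under 7 alternatives and SLC38A4 under 6, among them the fits without background correction and on the deposited matrix. Of the 9 SLC38 genes measured, 4 lay above 0 and 5 below.

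Carriers known to respond to ATF4, the transcription factor of amino acid shortage, did not pass as single genes. Of 12 listed, 10 were measured on their brightest probes, none passed and 4 had an unadjusted p under 0.05 in limma, all lower (40%, against 20.6% of all genes in either direction). Their median was -0.19, against -0.01 over all genes, with 4 members above 0 and 6 below. SLC7A5, the large neutral amino acid transporter LAT1, measured 11.21, 11.35 and 12.07 with control siRNA and 10.93, 11.002 and 10.85 after siP/CAF; the treated arrays lay below the controls, and control array 3 was far above the other controls. The difference was -0.61 (95% interval -1.10 to -0.13; limma with Benjamini-Hochberg, adjusted p = 0.155). Its partner subunit SLC3A2 measured 0.08, the serine transporter SLC1A4 -0.59 and the glutamine carriers SLC38A1 and SLC1A5 -0.42 and -0.28.

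Sugar carriers had 15 measured genes, none passing and 5 with an unadjusted p under 0.05 in limma (33.3%, against 20.6% of all genes), 4 of them higher. SLC2A6, the intracellular glucose transporter family member GLUT6, measured 9.62, 10.09 and 9.71 with control siRNA and 10.50, 10.22 and 10.53 after siP/CAF, a difference of 0.61 (limma with Benjamini-Hochberg, adjusted p = 0.0846). SLC5A10, a sodium-dependent sugar cotransporter of the kidney, measured 0.71 on a dim probe (limma with Benjamini-Hochberg, adjusted p = 0.107). The widely expressed glucose transporter SLC2A1 measured 0.38 with separate groups and SLC2A3 0.13 (limma with Benjamini-Hochberg, adjusted p = 0.198 and 0.758). These last 2 belong to the hypoxia-responsive carriers, of which 8 were listed and 4 measured. None of the 4 passed, and 1 had an unadjusted p under 0.05 in limma (25%, against 20.6% of all genes). All 4 lay above 0 and the median was 0.18.

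Of 14 listed carriers of skeletal muscle, 8 were measured and SLC25A34 was the 1 that passed (12.5%, against 5.37% of all genes). The list is too small to read a share from. Its median was -0.07, with 4 members on each side of 0. The creatine transporter SLC6A8 measured -0.79 on a probe detected on 3 control and 1 siP/CAF arrays and did not pass (limma with Benjamini-Hochberg, adjusted p = 0.142). A probe for SLC6A10P, a pseudogene copied from SLC6A8, measured -0.79 too, and a probe of either may read both transcripts. The sodium-calcium exchanger SLC8A1 measured 0.33 and the glutamate-aspartate carrier SLC25A12 -0.24.

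Zinc and other metal carriers had 24 measured genes and none passed. Before adjustment, 4 had a limma p below 0.05 (16.7%, against 20.6% of all genes). The exporter family SLC30, which moves zinc out of the cytosol, had 3 of 6 members above 0, and the importer family SLC39, which moves it into the cytosol, 9 of 10. SLC39 had a median of 0.17, and scaling to a common median left 8 of 10 above 0. Over all genes, 5703 of 11806 lay above 0. No SLC39 gene had a limma p below 0.05 before adjustment. Groups were separate for 1 SLC39 gene (10%, against 27.7% of all genes). In SLC30, 3 of 6 genes had such a p, 2 higher and 1 lower. SLC39A3 measured 0.17 on its brightest probe and -0.20 on its dimmest. SLC30A3, a zinc transporter of vesicles, measured 10.94, 11.12 and 11.07 with control siRNA and 10.55, 10.63 and 10.49 after siP/CAF, the closest to passing at -0.49 (limma with Benjamini-Hochberg, adjusted p = 0.0889). The iron transporter SLC11A2 measured -0.43 and the cell-surface zinc exporter SLC30A1 0.41 (limma with Benjamini-Hochberg, adjusted p = 0.197 and 0.256). The heme transporter SLC48A1 had probes of opposite sign, -0.30 on the brighter and 0.46 on the dimmer, which was the widest gap between probes of a carrier, and neither passed.

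The class named for nucleotide sugar carriers, which supply the Golgi apparatus and the endoplasmic reticulum, was set by family, SLC33 and SLC35. Not every member is known to carry nucleotide sugars. The class had 25 measured genes and 1 rise (4%, against 2.28% of all genes). SLC35G2, an SLC35 member whose substrate is not established, measured 8.33, 8.10 and 8.08 with control siRNA and 8.86, 8.87 and 8.92 after siP/CAF. All treated arrays lay above all controls and close together. It rose by 0.71 (SE 0.15; limma with Benjamini-Hochberg, adjusted p = 0.0264), and the call held without control array 3 and was lost without each other array (limma with Benjamini-Hochberg, adjusted p up to 0.111). It was also lost with arrays scaled to a common median (limma with Benjamini-Hochberg, adjusted p = 0.0961) and on the 4 numbered arrays with or without a block. SLC35A1, the CMP-sialic acid transporter, measured -0.54 and SLC33A2 -0.46, both with separate groups (limma with Benjamini-Hochberg, adjusted p = 0.0657 and 0.205). The class had a median of 0.01 and groups that did not overlap for 10 genes (40%, against 27.7% of all genes).

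Carriers of inorganic ions and protons had 19 measured genes and none passed. Before adjustment, 3 had a limma p below 0.05 (15.8%, against 20.6% of all genes). The anion exchanger SLC26A4, known as pendrin, measured -0.68 and the sodium-potassium-chloride cotransporter SLC12A2 -0.42, each with separate groups (limma with Benjamini-Hochberg, adjusted p = 0.0782 and 0.128). Among vitamin and choline carriers, SLC46A3, a lysosomal carrier, measured 10.04, 10.42 and 10.94 with control siRNA and 9.76, 9.70 and 9.56 after siP/CAF. The groups were separate but the controls spread widely, and the difference of -0.80 did not pass (limma with Benjamini-Hochberg, adjusted p = 0.0712). The reduced folate carrier SLC19A1 measured -0.46 (limma with Benjamini-Hochberg, adjusted p = 0.136).

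The remaining classes were small. Of 3 fatty acid transport proteins, SLC27A3 measured 6.11, 5.91 and 6.76 with control siRNA and 7.15, 6.83 and 7.22 after siP/CAF, a difference of 0.81 that passed without control array 3 (limma with Benjamini-Hochberg, adjusted p = 0.0767 with all arrays and 0.0164 without it), while SLC27A1 measured 0.05. Of 5 carriers of organic ions and bile acids none had an unadjusted p under 0.05, the nearest being SLC22A4 at 0.21 and SLC10A3 at 0.14. Among 6 unclassed carriers SLC67A2 measured -0.35 and SLC71A1 0.16. A further 12 symbols name no carrier, being antisense or divergent RNAs, pseudogenes and the proteins SLC2A4RG, SLC4A1AP and SLC7A6OS; none passed, and SLC4A1AP measured 0.40 (limma with Benjamini-Hochberg, adjusted p = 0.195).

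Probes of the same carrier mostly had the same sign. Of the 202 genes, 47 had 2 or more tested probes, and for 34 of these (72.3%, against 67.1% of all genes with several tested probes) all probes had the same sign. The median gap between the highest and lowest log2 difference of a gene was 0.18 for carriers and 0.18 for all genes. Both probes of SLC18A1 passed. For SLC29A4 and SLC7A3 the dim probes were detected on no siP/CAF array and tested only through the controls, so their calls say nothing of agreement between probes. Counted as probes, 10 of 262 carrier probes passed (limma with Benjamini-Hochberg, adjusted p under 0.05), against 4.58% of all tested probes.

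**Figure D3:**
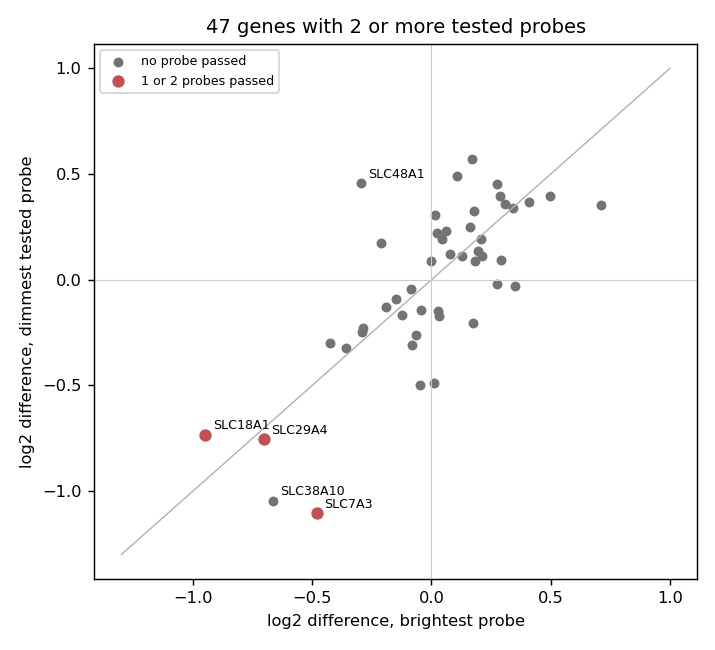
Log2 difference (siP/CAF minus control siRNA) of the dimmest tested probe against that of the brightest, for the 47 solute carrier genes with 2 or more tested probes; the diagonal marks equal differences and red points are genes with a probe that passed limma. SLC18A1, SLC29A4, SLC7A3 and SLC38A10 lie lower on both probes, and SLC48A1 has opposite signs. For SLC29A4 and SLC7A3 the dimmest probe was tested only through the controls, so its position says nothing of agreement.

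Some solute carriers have symbols that do not start with SLC and a digit, and these were listed apart. Among them are the uncoupling proteins, the organic anion transporters of the SLCO family and the sideroflexins. Of 48 listed, 30 were measured, 1 rose and 1 fell (6.67%, against 5.37% of all genes), with a median of -0.02. UCP3, the uncoupling protein of muscle, measured 7.82, 7.45 and 7.66 with control siRNA and 8.63, 8.64 and 8.44 after siP/CAF and rose by 0.93 (limma with Benjamini-Hochberg, adjusted p = 0.0124). The treated arrays were all higher than the controls, and the call was lost without siP/CAF array 1 or 2. SLCO2B1, an organic anion transporter, measured 7.40, 8.11 and 8.33 against 6.86, 7.12 and 6.59, a fall of 1.09 (limma with Benjamini-Hochberg, adjusted p = 0.0366). The groups were separate, control array 1 was the lowest control, and the call held only when that array was left out.

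Proteins that assist or regulate carriers held 3 calls among 15 measured of 29 listed (20%, against 5.37% of all genes), 1 higher and 2 lower. The list is small and was chosen with earlier results of these data known, so no excess can be read from that share. FXYD6, a small regulator of the sodium pump that sustains the gradient sodium-coupled carriers use, fell by 1.28, from 9.80, 9.73 and 9.72 to 8.52, 8.33 and 8.58 (limma with Benjamini-Hochberg, adjusted p = 0.00167). WNK4, a kinase that controls cation-chloride cotransporters, passed as higher on a probe detected on 1 control and 3 siP/CAF arrays (limma with Benjamini-Hochberg, adjusted p = 0.00487). Its fitted log2 difference was 1.39, and 0.71 without background correction, so its size is uncertain. TXNIP, which limits glucose uptake through SLC2A1, fell by 0.85 (limma with Benjamini-Hochberg, adjusted p = 0.0378). The chaperone of monocarboxylate carriers BSG measured -0.06. The ABC superfamily, mostly ATP-driven transporters, was listed by symbol, so pseudogenes such as ABCC6P1 and non-transporters such as ABCE1 were counted. Of 21 measured symbols, 3 passed (14.3%, against 5.37% of all genes), again too few to read a share from. Of these 1 rose, ABCC3 by 0.90, and 2 fell, ABCA2 by 0.79 and ABCB9 by 0.76 (limma with Benjamini-Hochberg, adjusted p = 0.0212, 0.0358 and 0.0329). Without background correction the log2 differences were 0.45 for ABCC3, which 2 control arrays detected, and -0.52 for ABCA2. Whichever single array was left out, FXYD6 and WNK4 passed. TXNIP, ABCA2 and ABCB9 each passed in 1 of those 6 fits and ABCC3 in 2, with adjusted p up to 0.132, 0.141, 0.141 and 0.0906 (limma with Benjamini-Hochberg): TXNIP passed without control array 3, ABCA2 without siP/CAF array 3, ABCB9 without control array 1, and ABCC3 without control array 2 or 3.

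**Figure D4:**
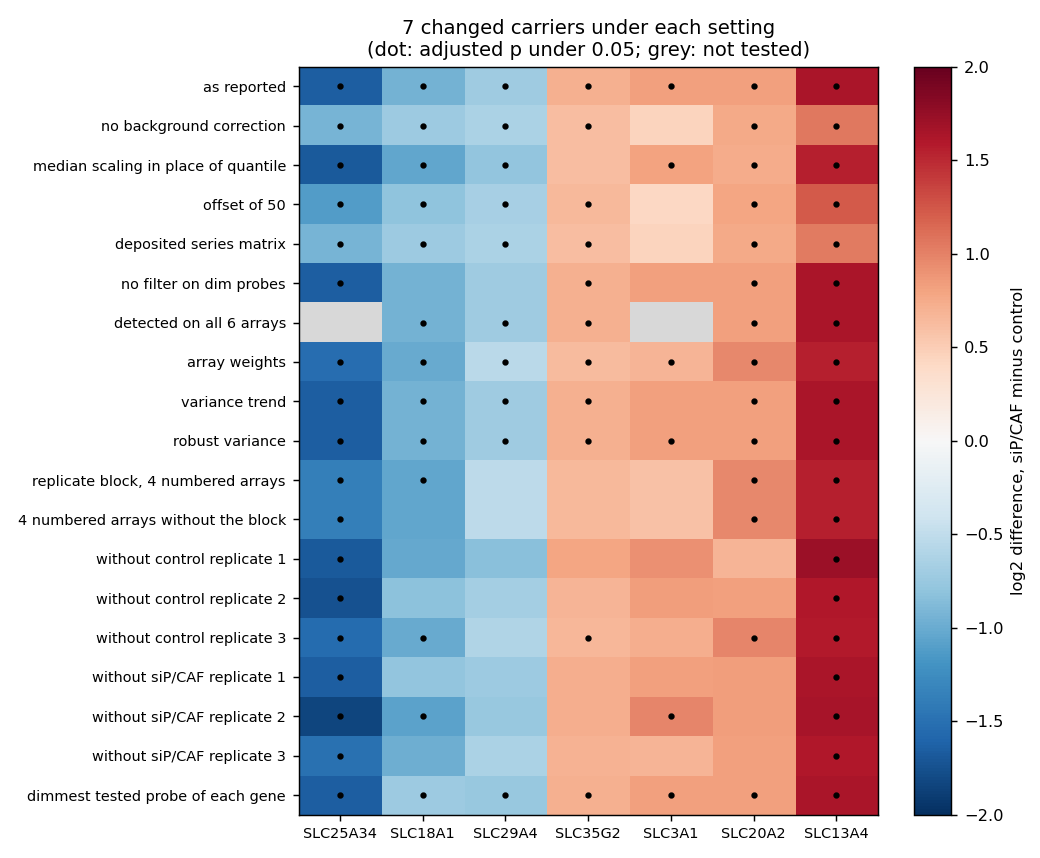
Log2 difference (colour, siP/CAF minus control siRNA) of the 7 carriers that passed on their brightest probe, in columns, under the reported setting and the 18 alternatives, in rows; a dot marks an adjusted p under 0.05 in limma and grey a gene that the stricter detection filter left out. SLC13A4 has a dot in all 19 rows and SLC25A34 in the 18 that tested it, while SLC29A4 has none when any 1 array is left out.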

How the data were processed

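Per the file headers, the deposited scanner table gives a mean bead signal as intensity and, beside it, a score headed as a p value, which was read from its values as 1 minus the detection p. The deposited series matrix holds values read here as log2, because on bright probes they followed log2 signals centred on each probe's median (r between 0.933 and 0.970). How the authors made these deposited log2 values is not stated, and they served as an alternative only. No source used here names the authors' software.

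Signals were background-corrected (normexp with detection p), offset by 16, quantile normalized and log2 transformed (neqc, limma 3.58.1, R 4.3.3). Groups were compared by limma without a block, with Benjamini-Hochberg adjustment over 21232 probes. Of 47323 probes, 30113 had 1 symbol in the platform annotation, 8 had several and 17202 had none here. The array tables name no genome build, so coordinates belong to the RefSeq promoters only. The number of arrays limits the precision. No 2 arrays held identical values.

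Genes named are KAT2B, every carrier with a passing probe, the 2 of each transport class with the smallest p that did not pass, and members of the lists. Other carriers were named after their values were seen. The members, classes and lists were chosen with earlier results of these data known. Detection bounds use the lowest normalized value of a detected probe per array (5.14 to 5.19 on the log2 scale). Limma was tested on simulated data with known changes, drawn independently per probe and array, so effects shared by an array were not covered. The 18 alternatives covered background, scaling, offset, filter, matrix values, variance model, array weights, probe choice, replicate numbers and leaving out each array.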

Additional observations from a re-analysis of the deposited data

How the results depend on the processing

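KAT2B and SLC13A4 kept their direction and call under all 18 alternatives, and SLC25A34 under the 17 that tested it. The carriers' median stayed near 0 with either sign, from -0.04 with scaling to a common median to 0.07 on the 4 numbered arrays. The number of changed carrier genes was 7 as reported and moved with the setting. It was 13 without background correction, with an offset of 50 and on the deposited matrix (8 lower in each), 12 with arrays scaled to a common median (9 lower), 11 with a variance trend (7 lower), 29 with array weights (15 higher, 14 lower) and 4 without a filter on dim probes (1 lower). The share of all genes called moved too. It was 6.79% without background correction, 6.84% with an offset of 50 and 6.74% on the deposited matrix, against 6.44% of carriers in each. It was 6.11% against 5.94% with scaling to a common median, and 6.29% against 5.45% with a variance trend. With array weights it was 14.8% against 14.4%, and without the filter 4.08% against 1.98%. Carrier probes changed numbered 10 as reported, 16 with scaling to a common median, 36 with array weights and 6 without the filter. Of all tested probes 4.58% passed as reported, and that share is not given here for the alternatives. Leaving out 1 array gave between 2 and 6 genes, 1 to 4 higher and 1 to 3 lower, and 3 to 9 probes. In those fits 1.77% to 5.95% of all genes were called, against 0.990% to 2.97% of carriers. The groups were then separate for 66 to 91 carrier genes, and the matching share of all genes is not given here. Groups separate on all arrays stay so when 1 is left out, so that count cannot fall. Why the counts of called genes and probes moved was not tested.

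The labels number 4 of the 6 arrays alike in both groups, and same-numbered arrays did not deviate together (r of deviations from the group means -0.15 and -0.41), so the numbers are not taken as pairs. With the replicate block on those 4 arrays, 5 carrier genes (2.48%, against 3.74% of all genes) and 6 probes passed. Without the block, 8 genes passed on the same arrays (3.96%, against 6.47% of all genes). The groups were separate for 128 carrier genes in both, and the matching share of all genes is not given here. SLC27A1, at 0.05 as reported, was -0.041 with scaling to a common median, and lay between -0.13 and 0.35 when 1 array was left out.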
